A study of Homo sapiens with 18 samples.

Results

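The subject here is the interaction of genotype and early differentiation in HUDEP-2 cells: how far the difference between HBBko and WT cells after 48 h of differentiation departed from the difference between the same lines before differentiation. HUDEP-2 is an established human erythroid progenitor line from umbilical cord, and HBBko cells are HUDEP-2 cells in which the beta-globin gene HBB was disrupted. Of the 35616 genes listed, 11577 had at least 1 scaled TPM (the deposited unit: TPM, an abundance per transcript length, scaled further between libraries) in 3 or more of 12 libraries, and all of these were tested. The 12 libraries form 4 groups of 3: HBBko after 48 h, WT after 48 h, HBBko undifferentiated and WT undifferentiated. For genotype the labels give WT or HBBko and no other allele or agent. The labels state neither the number of clones behind HBBko nor whether the triplicates were started independently, so the p values measure the spread between these libraries, which may be technical.

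The interaction of a gene is its HBBko minus WT difference at 48 h minus its HBBko minus WT difference in undifferentiated cells, in units of log2(scaled TPM + 1). A positive interaction is described as higher and a negative one as lower, and a gene was called at an adjusted p under 0.05 in limma. Each interaction equals the response to 48 h of differentiation in HBBko minus the same response in WT. An interaction can therefore come from a difference between the lines that narrowed, widened or changed sign.

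Erythroid differentiation brings up globin, heme and red cell membrane genes while progenitor genes go down. Globin chains are made in very large amounts, and alpha-globin left without a partner chain is a load on the chaperones and on proteolysis. ATF4 drives the integrated stress response, in which phosphorylated eIF2alpha slows translation while ATF4 is translated, and its targets import and make amino acids and charge tRNAs. In red cell precursors the eIF2alpha kinase HRI couples this response to heme supply, and the series' title ties ATF4, MYB and gamma-globin to the loss of beta-globin.

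HBB was read first, as the disrupted gene. It stood at 22101, 22926 and 24265 scaled TPM in HBBko at 48 h and at 99196, 103106 and 132741 in WT at 48 h, against 4598, 4843 and 4983 in undifferentiated HBBko and 12517, 12454 and 22376 in undifferentiated WT. Every HBBko library was below every WT library of its stage. Erythroid markers were present in all 12 libraries: GATA1 was between 166 and 266 scaled TPM and KLF1 between 284 and 716. The first principal component, which separated the stages, held 78.8% of the variance and the second 11.5%. WT undifferentiated replicate 3 stood apart: its correlations with the other libraries of its group across genes were 0.986 and 0.988, against at least 0.992 for every other pair of libraries within a group, and its HBB was the highest of the undifferentiated libraries. WT 48 h replicate 3 also had the highest HBB of its group, so several results are also given without 1 or both of these libraries. The number of reads behind each library is unknown, and in bulk RNA fewer cells of a type and less RNA per cell cannot be told apart.

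The interaction was called for 1308 of 11577 genes (11.3%), 766 higher (6.62%) and 542 lower (4.68%). At 48 h the lines differed in 1964 genes (17.0%), and before differentiation in 5002 genes (43.2%). Both lines changed widely between the stages, with 7659 genes called in HBBko (66.2%) and 7524 in WT (65.0%). Most interactions were moderate: the median absolute interaction of the called genes was 0.47, the median SE over all tested genes was 0.12, and 66 called genes (0.570%) reached a 2-fold interaction, 30 higher and 36 lower. Leaving out 1 library at a time gave between 495 called genes, without HBBko undifferentiated replicate 1, and 2315, without WT undifferentiated replicate 1. Scaling all libraries to equal sums, under which 1573 genes were called, changed the split to 1356 higher and 217 lower. The split was more even under other scalings. It was 611 higher and 608 lower with median-of-ratios scaling, 548 and 478 with equal sums without globins, and 752 and 676 with quantile normalization.

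**Figure D1:**
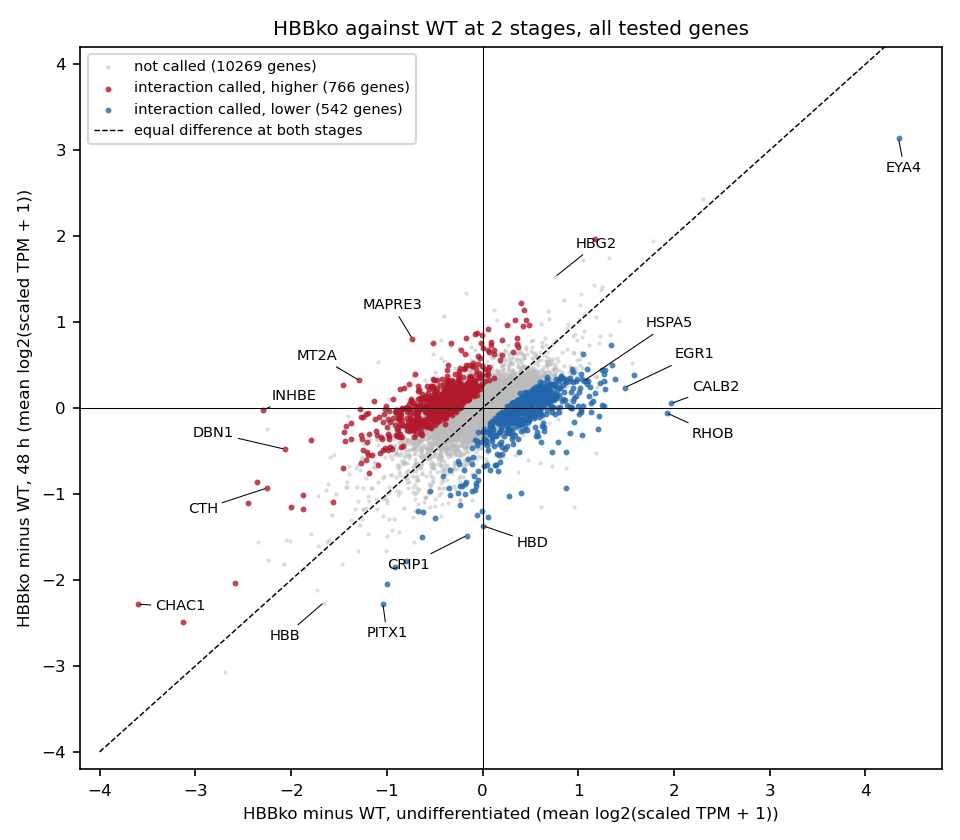
HBBko minus WT differences in mean log2(scaled TPM + 1) of the 11577 tested genes, undifferentiated on the x axis and at 48 h on the y axis, with called genes in red (interaction higher) and blue (lower). Genes on the dashed line differ equally at both stages, and most red and blue points lie closer to 0 on the y axis than on the x axis, while CRIP1, HBD and PITX1 lie far below 0 on the y axis.

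The usual pattern was a difference between undifferentiated cells that was smaller at 48 h. The absolute difference was smaller at 48 h for 1057 of the 1308 called genes (80.8%), against 65.8% of all tested genes. By sign, 536 called genes (41.0%) had a difference of the same sign that was smaller at 48 h, 73 (5.58%) one of the same sign that was larger at 48 h, and 699 (53.4%) had opposite signs at the 2 stages. Over all tested genes these shares were 46.2%, 22.4% and 31.4%, so called genes held a smaller share with the same sign and a smaller difference at 48 h, and a larger share with opposite signs. Among the genes with opposite signs, 521 were also smaller in size at 48 h. The undifferentiated difference alone was called for 943 of the 1308 genes, the 48 h difference alone for 166, both for 173 and neither for 26. Without WT undifferentiated replicate 3, 1803 genes were called, of which 74.6% had the smaller difference at 48 h, 1038 were called in undifferentiated cells alone, 332 at 48 h alone and 387 at both stages, and 143 had a difference of the same sign that was larger at 48 h. Means below 1 scaled TPM in both lines at 48 h were found for 105 of the called genes, and log2(scaled TPM + 1) leaves little room for a difference there.

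Read as responses to differentiation, 615 of the 1308 called genes changed in the same direction in both lines, 295 of them more in HBBko and 320 more in WT. A further 291 responded in HBBko alone and 314 in WT alone, 87 responded in opposite directions, and 1 was called in neither line.

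Targets of ATF4 and of the amino acid response were mostly lower in HBBko than in WT at both stages, and for 11 of them the gap was called smaller at 48 h. Among the 48 such genes tested, 45 were called lower in HBBko before differentiation and 39 at 48 h, where 22.1% and 8.14% of all tested genes were called lower at these stages. The interaction was called for 11 members (22.9% of the list), all higher (22 higher and 0 lower at an unadjusted p under 0.05), and all with a difference of the same sign that was smaller at 48 h. Over all tested genes 6.62% were called higher. The median interaction of the list was 0.37, against 0.02 over all tested genes, and 40 of the 48 members had a positive value, as did 53.1% of all tested genes. The members that were called import cystine and neutral amino acids (SLC7A11, SLC1A5), make cysteine, serine and one-carbon units (CTH, PSPH, MTHFD2), charge tRNA with asparagine (NARS), break down glutathione (CHAC1) or are secreted signals and a lipoprotein receptor (INHBE, ADM2, VEGFA, VLDLR). Leaving out 1 library at a time gave 7 to 19 called members: 7 without HBBko 48 h replicate 2 or 3, WT 48 h replicate 1 or 2, or HBBko undifferentiated replicate 1 or 3, and 19 and 17 without WT undifferentiated replicate 1 and 2. Without WT undifferentiated replicate 3 the count was 14.

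CTH (cystathionine gamma-lyase, which makes cysteine; chr1:70411218-70439851) had 3.67, 3.95 and 3.54 scaled TPM in HBBko at 48 h and 7.49, 7.47 and 9.11 in WT at 48 h, against 4.48, 4.24 and 4.35 in undifferentiated HBBko and 19, 22.7 and 34 in undifferentiated WT. Every WT library was above every HBBko library of its stage, by a wider margin before differentiation. Gene positions throughout are those of the GENCODE annotation of GRCh38. The HBBko minus WT difference was -0.93 at 48 h and -2.25 before differentiation, an interaction of 1.32 (SE 0.22, adjusted p = 0.00497). Between the stages CTH fell by 1.5 on the log2 scale in WT (adjusted p = 2.03e-06) and its change of -0.18 in HBBko was not called (adjusted p = 0.315). CTH was called in all 12 fits that left out 1 library, with interactions of 1.09 to 1.5.

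CHAC1 (chr15:40952962-40956519) encodes a cytosolic enzyme that breaks down glutathione and is a well-known ATF4 target. Its RefSeq promoter on GRCh38.p14, chr15:40953221-40953470 on the plus strand, is shown because CHAC1 had the widest undifferentiated gap of the called members and is the one ATF4 target named by the rule with a promoter match. Capitals mark the match to TGATGNAA, the core of the amino acid response element, read here on the minus strand.
CHAC1: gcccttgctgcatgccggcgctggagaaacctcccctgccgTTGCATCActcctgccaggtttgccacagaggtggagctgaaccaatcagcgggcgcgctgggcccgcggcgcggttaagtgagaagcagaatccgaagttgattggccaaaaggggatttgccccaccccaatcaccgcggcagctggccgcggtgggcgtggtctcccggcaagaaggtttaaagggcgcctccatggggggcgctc
The match begins 209 bases before the RefSeq start. The window lies inside the GENCODE interval of CHAC1 given above, so it is upstream of the RefSeq start only. TGATGNAA was searched on both strands of the 250 bases before each start and occurs in 3.15% of 35093 promoters. Of the 48 list members, 29 have a promoter entry and 6 of these hold a match (ASNS, ATF3, CEBPG, CHAC1, MTHFD1L and SLC1A5), among them 2 of the 6 called members with an entry.

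Levels of CHAC1 were 3.76, 3.7 and 4.02 scaled TPM in HBBko at 48 h and 21.7, 18.5 and 28.2 in WT at 48 h, against 2.69, 3.89 and 2.03 in undifferentiated HBBko and 35.5, 32.3 and 78.7 in undifferentiated WT. Both WT groups lay above both HBBko groups without overlap, and WT undifferentiated replicate 3 was the highest library. The difference was -2.28 at 48 h and -3.6 before differentiation, with an interaction of 1.31 (SE 0.39, adjusted p = 0.0476). The call was near the threshold: it was lost without any 1 of the 48 h libraries or without HBBko undifferentiated replicate 1 or 3 (adjusted p 0.0523 to 0.108), and without WT undifferentiated replicate 3 the interaction was 0.92 (adjusted p = 0.0283).

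INHBE (inhibin beta E, a secreted factor of the TGF-beta family; chr12:57452323-57459280) had the highest interaction of the named genes. It was at 0.0211, 0.0361 and 0.0501 scaled TPM in HBBko at 48 h and 0.0573, 0.0539 and 0.0462 in WT at 48 h, against 0.224, 0.236 and 0.264 in undifferentiated HBBko and 3.16, 3.98 and 9.81 in undifferentiated WT. Only undifferentiated WT libraries were above 1 scaled TPM, and the 48 h groups could not be told apart at these levels. The interaction was 2.27 (SE 0.36, adjusted p = 0.00395), and 1.85 without WT undifferentiated replicate 3.

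ADM2 (adrenomedullin 2, a peptide hormone; chr22:50481556-50486440) averaged 0.184 ± 0.050 scaled TPM in HBBko and 1.6 ± 0.693 in WT at 48 h, against 0.428 ± 0.0888 in HBBko and 7.22 ± 3.54 in WT before differentiation (SD, n = 3 each). Its interaction was 1.34 (SE 0.33, adjusted p = 0.0257), and the call was lost without any HBBko 48 h library, WT 48 h replicate 1 or 2, or HBBko undifferentiated replicate 1 or 3 (adjusted p 0.0552 to 0.0648). Without WT undifferentiated replicate 3 the ADM2 interaction was 1.01 (adjusted p = 0.0138). PSPH, the last enzyme of serine synthesis, differed before differentiation alone: it had 19.7, 18.3 and 18.6 scaled TPM in HBBko and 19.4, 19.2 and 19.9 in WT at 48 h, against 29.8, 31.5 and 28 in HBBko and 51.8, 53.5 and 66.4 in WT before differentiation. The 48 h libraries of the 2 lines overlapped for PSPH, the undifferentiated ones did not, and the interaction was 0.86 (SE 0.12, adjusted p = 0.00199).

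MTHFD2, a mitochondrial folate enzyme, kept part of its gap, at 71.5, 72.9 and 72.2 scaled TPM in HBBko and 99.2, 102 and 116 in WT at 48 h, against 94.1, 87.2 and 91.7 in HBBko and 182, 194 and 237 in WT before differentiation. WT was the higher line at both stages, and the interaction was 0.61 (SE 0.12, adjusted p = 0.0113). The other called members had interactions of 1.00 (VLDLR, with both 48 h means below 1 scaled TPM), 0.86 (SLC7A11), 0.75 (VEGFA), 0.54 (SLC1A5) and 0.31 (NARS). Not every target narrowed: DDIT4, an inhibitor of mTORC1, had differences of -2.12 at 48 h and -1.73 before differentiation (interaction -0.39, adjusted p = 0.205), and TRIB3, a pseudokinase that restrains ATF4, had -1.61 and -1.72 (interaction 0.11, adjusted p = 0.877).

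ATF4 itself (chr22:39519695-39522685) had 268, 266 and 268 scaled TPM in HBBko and 377, 383 and 422 in WT at 48 h, against 303, 272 and 302 in HBBko and 514, 516 and 704 in WT before differentiation. WT was higher at both stages without overlap, and the interaction of 0.41 (SE 0.14) was not called (adjusted p = 0.0816). Leaving out any 1 of the WT undifferentiated libraries brought it under the threshold (adjusted p 0.034 to 0.0448), with values between 0.26 and 0.49 over the 12 such fits. Of 12 tested eIF2alpha kinase and phosphatase genes 0 were called by limma, with 1 higher and 1 lower at an unadjusted p under 0.05.

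**Figure D2:**
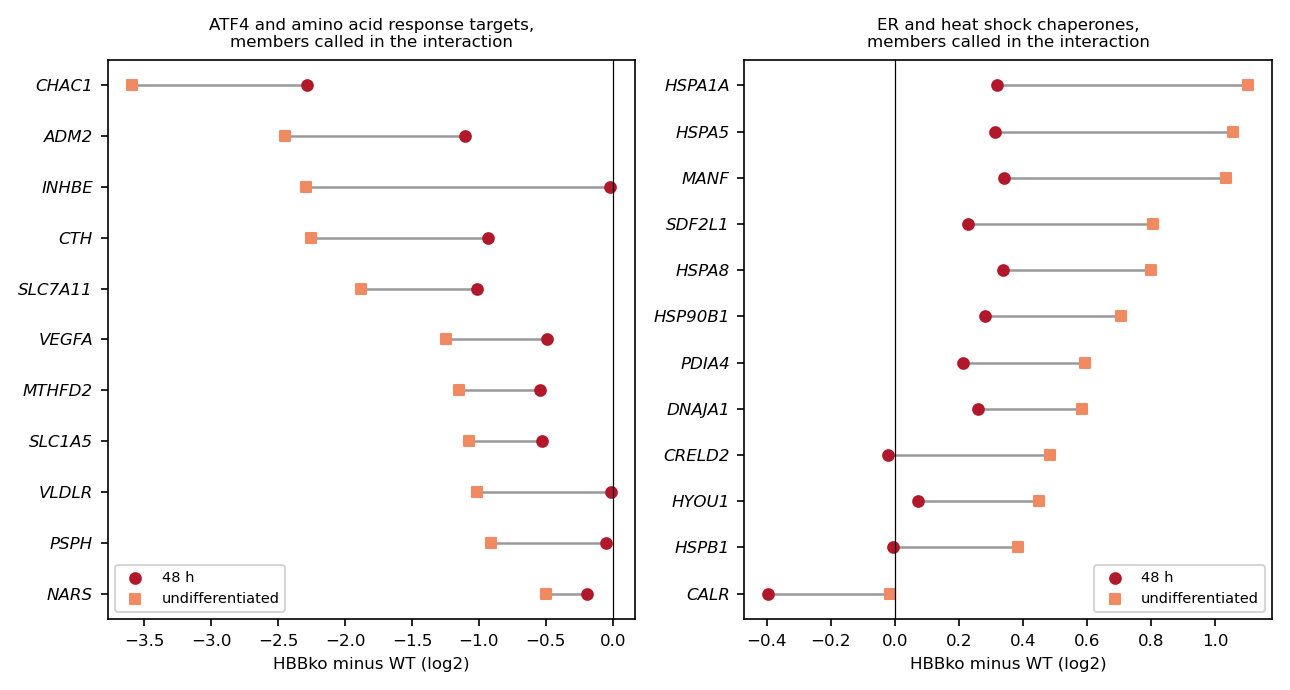
HBBko minus WT differences (log2, x axis) at 48 h (circles) and before differentiation (squares) for the called members of the ATF4 list (left) and of both chaperone lists (right). All 11 ATF4 targets lie closer to 0 at 48 h on the negative side, and the chaperones lie closer to 0 at 48 h on the positive side, except CALR, which lies farther below 0 at 48 h, and CRELD2 and HSPB1, which lie just below 0 at 48 h.

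Metallothioneins are small proteins that bind zinc and copper. Of 10 tested MT1 and MT2 genes, a group chosen after values were seen, MT1G and MT2A were called in the interaction, 9 had a positive value, and 9 were called higher at 48 h than before differentiation in each line. The undifferentiated difference was called for 3 (MT1G, MT1X and MT2A, all lower in HBBko). The 48 h difference was called for 0 by limma, with 3 at an unadjusted p under 0.05 (MT1A, MT1B and MT1E, all higher in HBBko). These genes are close copies of each other, so reads may be split between them. The pseudogene MT1XP1 was the one with a negative interaction (-1.24, adjusted p = 0.183) and the one not called higher at 48 h. The zinc exporter SLC30A1, which is induced by zinc together with the metallothioneins, was called lower in HBBko before differentiation and not at 48 h.

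The promoter of MT2A from RefSeq on GRCh38.p14 is chr16:56608334-56608583 on the plus strand. It is shown because MT1G, MT2A and SLC30A1 were called lower in undifferentiated HBBko and higher in the interaction. It was picked after the values were seen, and a part of metal in these changes was not tested. Capitals mark matches to TGCNCNC, a loose form of the core of the metal response element, on either strand.
MT2A: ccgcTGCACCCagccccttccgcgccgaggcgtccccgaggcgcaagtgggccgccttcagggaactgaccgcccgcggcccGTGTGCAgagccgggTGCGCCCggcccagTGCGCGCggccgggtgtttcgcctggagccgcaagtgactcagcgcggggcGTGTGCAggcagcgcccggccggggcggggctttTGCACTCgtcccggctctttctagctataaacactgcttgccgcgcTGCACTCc
It holds 7 matches, 5 on the plus and 2 on the minus strand, between 246 and 8 bases before the RefSeq start. The window lies inside the GENCODE interval of MT2A given below, so it is upstream of the RefSeq start only. At least 1 match is present in 49.1% of the 35093 promoters and 7 or more in 0.0855%, a cut set at the count of MT2A itself.

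MT2A (chr16:56608199-56609497) was at 55.5, 48.2 and 46.3 scaled TPM in HBBko and 41.9, 39.8 and 37.5 in WT at 48 h, against 2.83, 1.47 and 2.11 in HBBko and 5.03, 3.61 and 14.3 in WT before differentiation. Without overlap, HBBko was slightly above WT at 48 h and below WT before differentiation, with WT undifferentiated replicate 3 the highest of its group by far. The difference was 0.32 at 48 h and -1.29 before differentiation, the first of which was not called (interaction 1.61, SE 0.45, adjusted p = 0.0404). Without WT undifferentiated replicate 3 the interaction was 1.09 (adjusted p = 0.0083), and without any 1 of the 48 h or HBBko undifferentiated libraries the call was lost (adjusted p 0.0634 to 0.0941).

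MT1G (chr16:56666731-56668065) had 122, 119.7 and 125 scaled TPM in HBBko and 114, 105 and 87.6 in WT at 48 h, against 2.72, 1.34 and 1.98 in HBBko and 5.08, 4.15 and 16.3 in WT before differentiation. The interaction was 1.72 (SE 0.48, adjusted p = 0.0375). It was 1.18 without WT undifferentiated replicate 3, and the call was lost without any 1 of the 48 h or HBBko undifferentiated libraries (adjusted p 0.0598 to 0.0808). MT1X had a larger interaction of 1.98 that was not called (SE 0.61, adjusted p = 0.0551).

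SLC30A1 (chr1:211571568-211578742) was steadier, at 14.6, 14.2 and 13.7 scaled TPM in HBBko and 15.5, 14.6 and 18.5 in WT at 48 h, against 1.36, 0.809 and 1.52 in HBBko and 3.74, 4.73 and 5.89 in WT before differentiation. HBBko libraries were below WT libraries at both stages, narrowly at 48 h, where the difference of -0.18 was not called (adjusted p = 0.443). It rose at 48 h in both lines, by 2.78 in HBBko and 1.58 in WT (adjusted p = 3.24e-09 and 6.39e-07), and the interaction was 1.2 (SE 0.20, adjusted p = 0.0056), called in all 12 fits that left out 1 library.

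Further large positive interactions came from genes outside the lists. DBN1 (drebrin, which binds actin filaments; chr5:177456608-177474401) was at 0.343, 0.394 and 0.493 scaled TPM in HBBko and 0.801, 0.978 and 1.12 in WT at 48 h, against 5.31, 4.6 and 3.92 in HBBko and 16.9, 18.1 and 36.4 in WT before differentiation. It fell in both lines, by 1.99 on the log2 scale in HBBko and by 3.57 in WT, and the interaction was 1.59 (SE 0.31, adjusted p = 0.0096). Without WT undifferentiated replicate 3, the highest library, it was 1.25 (adjusted p = 0.000811). The HBBko libraries were below the WT libraries at both stages, and the 48 h difference of -0.48 was not called (adjusted p = 0.152). PPARD, a lipid-sensing nuclear receptor (chr6:35342558-35428191), changed in opposite directions: it averaged 5.2 ± 0.10 scaled TPM in HBBko and 7.06 ± 0.287 in WT at 48 h, against 2.74 ± 0.172 in HBBko and 12.3 ± 4.34 in WT before differentiation (SD, n = 3 each). It rose by 0.73 in HBBko and fell by 0.68 in WT on the log2 scale (adjusted p = 0.00112 and 0.00193), an interaction of 1.41 (SE 0.22, adjusted p = 0.00395). Without WT undifferentiated replicate 3 the PPARD interaction was 1.16 (adjusted p = 6.01e-05).

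MAPRE3 (a microtubule plus-end binding protein; chr2:26970612-27027196) was one of 46 genes whose difference was called at both stages with opposite signs. It had 5.47, 5.74 and 5.14 scaled TPM in HBBko and 2.88, 2.89 and 2.31 in WT at 48 h, against 5.37, 6.03 and 6.37 in HBBko and 9.03, 9.34 and 13.6 in WT before differentiation. At 48 h HBBko was above WT and before differentiation below it, without overlap at either stage. The WT level fell by 1.64 on the log2 scale over 48 h while the HBBko change of -0.10 was not called, and the interaction was 1.54 (SE 0.18, adjusted p = 0.0012). Without WT undifferentiated replicate 3 it was 1.37 (adjusted p = 0.000131).

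Of the 46 genes with called differences of opposite sign, 33 were higher in HBBko at 48 h and lower before differentiation, and 13 were the reverse. Differences of at least 0.5 at both stages were found for 3 of them: MAPRE3, TTC39A and RASGEF1A. TTC39A (chr1:51287258-51345116) was at 2.2, 1.93 and 1.47 scaled TPM in HBBko and 2.78, 2.73 and 3.72 in WT at 48 h, against 13.4, 14.4 and 13.8 in HBBko and 8.07, 7.27 and 6.14 in WT before differentiation. HBBko was the lower line at 48 h and the higher one before differentiation (interaction -1.38, SE 0.17, adjusted p = 0.00148). The count of such genes was 126 without WT undifferentiated replicate 3 and 78 without the third WT library of both stages. TM6SF1 (chr15:83107407-83144854) and AC015813.2 (chr17:57989038-58007246) complete the 12 largest positive interactions, at 1.27 (SE 0.21) and 1.22 (SE 0.34). TM6SF1 was below 1 scaled TPM in both lines at 48 h. The AC015813.2 call was lost without any 48 h library, HBBko undifferentiated replicate 1 or 2, or WT undifferentiated replicate 2 (adjusted p 0.0521 to 0.0899). It was also lost without the third WT library of both stages (0.88, adjusted p = 0.0636).

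Genes of the mitochondrial genome, which encode subunits of the respiratory chain and of ATP synthase, were mostly higher in HBBko than in WT at 48 h and mostly not called before differentiation. Of the 13 mRNA genes, 10 were called higher in the interaction and 0 lower by limma (12 and 0 at an unadjusted p under 0.05), and all 13 had a positive value (0.12 to 0.70). The median interaction was 0.49, against 0.02 over all tested genes, of which 6.62% were called higher. At 48 h 10 of the 13 were called higher in HBBko, where 8.83% of all tested genes were called higher. Before differentiation 0 were called higher and 1 (MT-CO1) lower, where 21.1% and 22.1% of all tested genes were. Leaving out 1 library at a time gave 7 to 12 called members, and quantile normalization and the omission of the filter on low values gave 4 each. MT-ND1, MT-ND2 and MT-CO1 were the members not called, with interactions of 0.12, 0.21 and 0.23.

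MT-CYB (cytochrome b of complex III; chrM:14747-15887) was at 2254, 2168 and 2284 scaled TPM in HBBko and 1401, 1368 and 1350 in WT at 48 h, against 3544, 3499 and 3535 in HBBko and 3511, 3585 and 3450 in WT before differentiation. Undifferentiated libraries of the 2 lines overlapped, and at 48 h all HBBko libraries were above all WT libraries. MT-CYB fell over 48 h in both lines, by 0.66 on the log2 scale in HBBko and by 1.36 in WT, and the interaction was 0.70 (SE 0.07, adjusted p = 0.000341). MT-ND4, a subunit of complex I (chrM:10760-12137), averaged 3490 ± 97.6 scaled TPM in HBBko and 2473 ± 98.9 in WT at 48 h, against 4591 ± 127 in HBBko and 5055 ± 199 in WT before differentiation (SD, n = 3 each), an interaction of 0.64 (SE 0.08). MT-ND6, another complex I subunit and the only one of these genes on the opposite strand (chrM:14149-14673), had an interaction of 0.61 (SE 0.08), and the library kit does not mark strand, so its reads cannot be told apart from antisense transcripts.

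Together the mitochondrial mRNAs made up 7.79%, 7.55% and 7.18% of the summed scaled TPM in HBBko at 48 h and 5.72%, 5.55% and 5.04% in WT at 48 h. Before differentiation their share was 10.1%, 10.4% and 10.2% in HBBko and 10.6%, 11.4% and 9.75% in WT. The share was higher in HBBko at 48 h without overlap, and the undifferentiated lines overlapped. The globin share moved the other way, rising over 48 h in both lines and lying lower in HBBko at 48 h. Globin genes took 13.1%, 13.0% and 13.7% in HBBko and 20.2%, 20.3% and 24.7% in WT at 48 h. Before differentiation they took 1.68%, 1.65% and 1.80% in HBBko and 2.36%, 2.29% and 3.84% in WT. The part that the globin share or the mitochondrial content of the cells has in the result was not tested. Nuclear genes of the respiratory chain had smaller values: of 28 tested, 24 had a positive value and the median was 0.08.

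**Figure D3:**
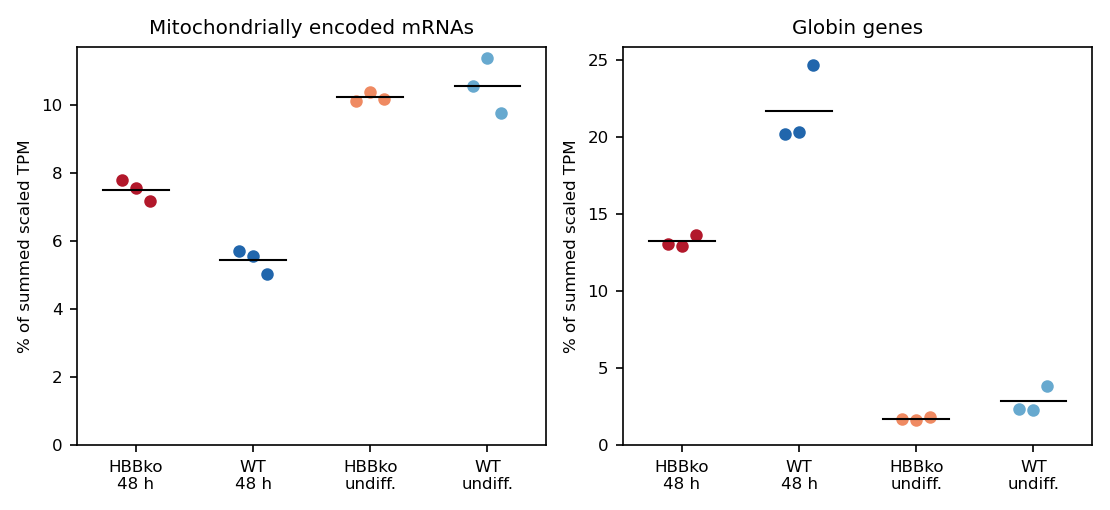
Share of the summed scaled TPM (%) held by mitochondrially encoded mRNAs (left) and by globin genes (right) in each library (points) with group means (lines), for HBBko and WT at 48 h and then before differentiation. At 48 h the HBBko libraries lie above WT for mitochondrial mRNAs and below WT for globins, and before differentiation the mitochondrial shares overlap.

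Chaperones of the ER had an excess in undifferentiated HBBko that was smaller at 48 h for 7 of the 8 called genes. Of 22 genes of the endoplasmic reticulum (ER) chaperone and unfolded protein response list, 8 were called lower (36.4%) and 0 higher by limma (10 and 4 at an unadjusted p under 0.05), with a median interaction of -0.12. Over all tested genes 4.68% were called lower and 6.62% higher. Undifferentiated HBBko had 9 of the 22 called above WT and 5 below it, against 21.1% and 22.1% of all tested genes. HBBko at 48 h had 4 above and 4 below, against 8.83% and 8.14% of all tested genes. The called members fold or process proteins in the ER: HSPA5, HSP90B1, HYOU1 and CALR are chaperones, PDIA4 forms disulfide bonds, SDF2L1 assists HSPA5, CRELD2 is a stress-induced ER protein and MANF is a secreted ER stress factor. Among members not called, the transcription factors XBP1 and ATF6 had interactions of 0.41 and 0.31 (adjusted p = 0.0601 and 0.0514). The count was 5 when libraries were scaled to equal sums and without HBBko 48 h replicate 1, WT 48 h replicate 1 or 2, or HBBko undifferentiated replicate 1.

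HSPA5 (BiP, the main ER chaperone; chr9:125234853-125241330) had 76.3, 79 and 76.6 scaled TPM in HBBko and 62.7, 62.8 and 60.6 in WT at 48 h, against 132, 119 and 122 in HBBko and 58.7, 62 and 57.7 in WT before differentiation. The 2 lines did not overlap at either stage, with HBBko higher. The difference was 0.31 at 48 h and 1.05 before differentiation (interaction -0.74, SE 0.07, adjusted p = 0.000341); HSPA5 fell by 0.68 on the log2 scale in HBBko, and its change of 0.06 in WT was not called. MANF (chr3:51385047-51389397) went the same way, at 19, 19 and 16.5 scaled TPM in HBBko and 13.1, 13.3 and 16 in WT at 48 h, against 45.1, 46 and 43.9 in HBBko and 23.9, 20.7 and 19.98 in WT before differentiation. Its HBBko libraries were the higher ones at both stages, and the interaction was -0.69 (SE 0.12, adjusted p = 0.00637). SDF2L1 (chr22:21642261-21644298) had an interaction of -0.58 (SE 0.14, adjusted p = 0.0251), which was not called without HBBko 48 h replicate 1 or 2, WT 48 h replicate 1 or 2, or HBBko undifferentiated replicate 1 (adjusted p 0.0604 to 0.0715). CALR, a calcium-binding chaperone, differed at 48 h alone, with 334, 346 and 349.8 scaled TPM in HBBko and 437, 444 and 475 in WT at 48 h, against 572, 529 and 546 in HBBko and 573, 529 and 561 in WT before differentiation. HBBko libraries were lower without overlap at 48 h and overlapped WT before differentiation (interaction -0.38, SE 0.07, adjusted p = 0.00937).

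Cytosolic chaperones of the heat shock list were called higher in HBBko for 19 of 26 tested members at 48 h and for 22 of 26 before differentiation, where 8.83% and 21.1% of all tested genes were called higher at these stages. In the interaction 4 were called lower and 0 higher by limma (8 and 1 at an unadjusted p under 0.05), with a median of -0.18: HSPA1A (-0.78, SE 0.17), HSPA8 (-0.46, SE 0.14), HSPB1 (-0.39, SE 0.11) and DNAJA1 (-0.32, SE 0.08). They made up 15.4% of the list, where 4.68% of all tested genes were called lower. HSPA8, the constitutive HSP70, was at 1811, 1830 and 1886 scaled TPM in HBBko and 1435, 1488 and 1444 in WT at 48 h, against 1891, 1731 and 1779 in HBBko and 1143, 1149 and 841 in WT before differentiation. All HBBko libraries were above all WT libraries of their stage, and the levels of WT at 48 h lay between those of WT and HBBko before differentiation. HSPA1A, the inducible HSP70, shares most of its sequence with HSPA1B, which had -0.39 and was not called (adjusted p = 0.0523). The count was 1 without any 1 of the 48 h libraries except WT 48 h replicate 3, without HBBko undifferentiated replicate 1 or 3, with equal sums and with no filter on low values, and 2 without WT 48 h replicate 3 or HBBko undifferentiated replicate 2.

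EGR1, DUSP2, FOSL1, SPRY2 and JUND, which respond to growth factors, were called lower in the interaction. Of 22 tested immediate early genes and feedback inhibitors of the MAP kinase pathway, 5 were called lower (22.7%) and 0 higher by limma (11 and 0 at an unadjusted p under 0.05), and 19 had a negative value, with a median of -0.32. Over all tested genes 4.68% were called lower in the interaction. Undifferentiated HBBko had 10 of the 22 called above WT and 1 below it, where 21.1% of all tested genes were above and 22.1% below. HBBko at 48 h had 2 above, near the 8.83% of all tested genes, and 4 below, where all tested genes had 8.14%. EGR1 (a zinc finger transcription factor switched on by growth signals; chr5:138465490-138469315) had 2.24, 2.15 and 1.87 scaled TPM in HBBko and 1.78, 1.63 and 1.43 in WT at 48 h, against 7.38, 6.55 and 6.48 in HBBko and 2.15, 2.28 and 1.08 in WT before differentiation. The undifferentiated HBBko libraries were above every other library, and at 48 h HBBko was slightly above WT without overlap. The difference was 0.24 at 48 h (adjusted p = 0.291) and 1.49 before differentiation, an interaction of -1.25 (SE 0.21, adjusted p = 0.00496).

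DUSP2, a phosphatase that inactivates MAP kinases (chr2:96143166-96145440), stood at 7.54, 7.61 and 8.22 scaled TPM in HBBko and 8.29, 7.66 and 7.08 in WT at 48 h, against 15.5, 13.4 and 15.8 in HBBko and 8.57, 6.26 and 5.42 in WT before differentiation. The lines overlapped at 48 h and not before differentiation, and the interaction was -1.03 (SE 0.17, adjusted p = 0.00544). FOSL1, a partner of JUN in AP-1 (chr11:65892049-65900573), had an interaction of -0.84 (SE 0.22, adjusted p = 0.0321), lost without any HBBko 48 h library, WT 48 h replicate 1 or 2, HBBko undifferentiated replicate 1 or WT undifferentiated replicate 2 (adjusted p 0.0533 to 0.0858). SPRY2 (-0.63) and JUND (-0.59) were the other called members. The count was 2 without any HBBko 48 h library, WT 48 h replicate 1 or 2, or HBBko undifferentiated replicate 1, 2 with no filter on low values, and 8 without WT undifferentiated replicate 3.

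RHOB, CALB2, PHLDA2 and INKA1 had their highest levels in undifferentiated HBBko and low levels in both lines at 48 h. RHOB (a small GTPase that acts on actin and endosomes; chr2:20447074-20449445) had 3.92, 3.43 and 3.7 scaled TPM in HBBko and 3.54, 3.43 and 4.73 in WT at 48 h, against 41.1, 27.2 and 31.6 in HBBko and 10.2, 6.91 and 7.01 in WT before differentiation. The lines overlapped at 48 h, and before differentiation every HBBko library was above every WT library. RHOB fell by 2.85 on the log2 scale in HBBko and by 0.87 in WT, the most negative interaction of the named genes at -1.98 (SE 0.23, adjusted p = 0.000946).

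CALB2 (calretinin, a calcium-binding protein; chr16:71358713-71390438) averaged under 1 scaled TPM in both lines at 48 h, 0.113 ± 0.0438 in HBBko and 0.073 ± 0.0324 in WT (SD, n = 3 each), where a difference can hardly be seen. Before differentiation it was at 23.3, 21.7 and 25.5 scaled TPM in HBBko and 5.86, 5.33 and 4.58 in WT, without overlap. The interaction was -1.92 (SE 0.13, adjusted p = 3.52e-05). PHLDA2, an imprinted growth regulator (chr11:2928273-2929455), was likewise below 1 at 48 h, with an interaction of -1.19 (SE 0.21). INKA1, an inhibitor of the kinase PAK4 (chr3:49803254-49805030), averaged 1.45 ± 0.115 scaled TPM in HBBko and 1.61 ± 0.179 in WT at 48 h, against 7.02 ± 0.783 in HBBko and 2.44 ± 0.302 in WT before differentiation (SD, n = 3 each), an interaction of -1.31 (SE 0.14, adjusted p = 0.000603).

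EYA4 (chr6:133240598-133532120), a transcriptional coactivator and phosphatase, had the widest gap between the lines of all called genes. It stood at 10.7, 12.2 and 9.64 scaled TPM in HBBko and 0.404, 0.349 and 0.271 in WT at 48 h, against 43.5, 47.3 and 43 in HBBko and 1.41, 1.49 and 0.877 in WT before differentiation. The HBBko libraries lay above WT at both stages by a wide margin, and no WT library exceeded 1.49 scaled TPM. The ratio of the group means was 31.7 at 48 h and 35.5 before differentiation. Its interaction of -1.21 (SE 0.16, adjusted p = 0.00159) holds on the log2(scaled TPM + 1) scale: in the authors' deposited table the log2 fold changes were 5.08 at 48 h and 5 before differentiation, a difference of 0.088 and of the opposite sign. ACTG1 (cytoplasmic gamma-actin; chr17:81509971-81523847) varied widely, with 49.4, 45.1 and 34.1 scaled TPM in HBBko and 79, 72.3 and 95.8 in WT at 48 h, against 232, 165 and 305 in HBBko and 234, 59.6 and 133 in WT before differentiation. The lines were apart at 48 h, with HBBko below WT, and overlapped before differentiation, and neither difference was called. The interaction was -1.81 (SE 0.52, adjusted p = 0.0435) and its call was lost without any 48 h library or HBBko undifferentiated replicate 1 or 3 (adjusted p 0.0713 to 0.101). The ACTG1 call was also lost without the third WT library of both stages (-1.75, adjusted p = 0.0881).

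Globin genes did not move as a group. Of 11 tested, HBD was called lower and HBE1 higher, 18.2% of the list against 11.3% of all tested genes. The median interaction was 0.03, against 0.02 over all tested genes. HBD (delta-globin, the minor adult beta-like chain; chr11:5232678-5243657) had 27.2, 24.8 and 32 scaled TPM in HBBko and 62.7, 67.5 and 94.4 in WT at 48 h, against 7.4, 6.57 and 7.67 in HBBko and 5.93, 7.43 and 8.3 in WT before differentiation. The lines overlapped before differentiation and were apart at 48 h, with WT higher. HBD rose in both lines, by 1.82 on the log2 scale in HBBko and 3.19 in WT, and the interaction was -1.38 (SE 0.21, adjusted p = 0.00348). HBD and HBB are close paralogs, so some reads may have been shared between them, and HBB was far more abundant.

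HBE1 (embryonic epsilon-globin) was at 4.12, 4.01 and 4.21 scaled TPM in HBBko and 1.49, 1.26 and 1.24 in WT at 48 h, against 0.74, 0.681 and 0.986 in HBBko and 0.388, 0.196 and 0.415 in WT before differentiation. Levels in HBBko exceeded those in WT at both stages, with an interaction of 0.70 (SE 0.14, adjusted p = 0.0111). The fetal gamma-globin genes differed at both stages as well. HBG2 (chr11:5253190-5505605) was at 5879, 6247 and 6339 scaled TPM in HBBko and 1764, 1994 and 2763 in WT at 48 h, against 304, 339 and 343 in HBBko and 151, 177 and 270.2 in WT before differentiation. Both differences favoured HBBko without overlap, and the interaction of 0.77 (SE 0.26) was not called (adjusted p = 0.0773). HBG1 (chr11:5248079-5249859), a near-identical copy whose reads may be split with HBG2, had an interaction of 0.67 (SE 0.23, adjusted p = 0.0749). Of the 12 fits that left out 1 library, 10 left each gene uncalled. The lowest values came without WT undifferentiated replicate 3, at 0.45 for HBG1 (adjusted p = 0.0728) and 0.53 for HBG2 (adjusted p = 0.0834). Both came under the threshold without WT 48 h replicate 3 (adjusted p = 0.0497 for HBG1 and 0.0395 for HBG2) or WT undifferentiated replicate 1 (0.0123 and 0.0222). They also did so without the third WT library of both stages, at 0.59 (adjusted p = 0.0108) for HBG1 and 0.71 (adjusted p = 0.0042) for HBG2.

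HBB had an interaction of -0.60 (SE 0.26), which was not called (adjusted p = 0.154); its ratio of HBBko to WT means was 0.207 at 48 h and 0.305 before differentiation. Without WT undifferentiated replicate 3 the HBB interaction was -0.88 (adjusted p = 0.00238), and without the third WT library of both stages -0.75 (adjusted p = 0.000459). Quantile normalization reversed its sign, to 1.16.

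Among regulators of globin genes, of 36 tested, KDM1A (the lysine demethylase LSD1, a corepressor of gamma-globin) was the only one called. This was 2.78% of the list, against 11.3% of all tested genes. KDM1A was at 74.9, 73.8 and 73.9 scaled TPM in HBBko and 65.2, 66.9 and 59.9 in WT at 48 h, against 108, 103 and 117 in HBBko and 137, 137 and 132 in WT before differentiation. HBBko was the higher line at 48 h and the lower one before differentiation, both without overlap (interaction 0.52, SE 0.08, adjusted p = 0.00348). MYB (chr6:135181315-135219173), a progenitor transcription factor that the series' title names, had 69.7, 71.7 and 72.8 scaled TPM in HBBko and 79.1, 83.6 and 69.6 in WT at 48 h, against 169, 161 and 166 in HBBko and 191, 196 and 181 in WT before differentiation. The lines overlapped at 48 h, HBBko was lower before differentiation, and the interaction of 0.08 (SE 0.09) was not called (adjusted p = 0.57). BCL11A, a gamma-globin repressor (chr2:60450520-60555154), had -0.30 (SE 0.11, adjusted p = 0.0899), and -0.39 (adjusted p = 0.00883) without WT undifferentiated replicate 3. KLF1, the erythroid activator of HBB (chr19:12884422-12887199), had 0.07 (SE 0.15, adjusted p = 0.786), and a value of the opposite sign, -0.05, without WT undifferentiated replicate 3.

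A difference of the same sign that was larger at 48 h was the least common pattern by sign, and CRIP1 was its largest case. Other differences that were larger at 48 h are counted among the genes with opposite signs. One is HBD, with 0.007 before differentiation and -1.37 at 48 h. In the authors' deposited table its log2 fold changes had the same sign at both stages, -0.48 before differentiation and -1.56 at 48 h. CRIP1 (a small LIM domain protein; chr14:105486317-105488947) had 17.1, 15.4 and 15.1 scaled TPM in HBBko and 47, 50.6 and 41.2 in WT at 48 h, against 71.1, 62.8 and 64.3 in HBBko and 71.3, 66.1 and 86.7 in WT before differentiation. Undifferentiated libraries overlapped, and at 48 h every HBBko library was below every WT library. CRIP1 fell by 1.99 on the log2 scale in HBBko and by 0.68 in WT (interaction -1.32, SE 0.14, adjusted p = 0.000603). The actin-binding peptide gene TMSB4X shared this pattern at a higher starting level, with means of 12.1 scaled TPM in HBBko and 22.7 in WT at 48 h, against 565 in HBBko and 587 in WT before differentiation (interaction -0.78, adjusted p = 0.0161; named after its values were seen).

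PITX1, a homeodomain transcription factor (chr5:135027735-135034813), rose in WT and was not called in HBBko, at 0.414, 0.573 and 0.406 scaled TPM in HBBko and 4.61, 4.99 and 9.56 in WT at 48 h, against 0.211, 0.228 and 0.13 in HBBko and 1.04, 0.909 and 2.75 in WT before differentiation. Every HBBko library was below 1 scaled TPM, and WT replicate 3 was the highest at each stage. Its interaction was -1.24 (SE 0.36, adjusted p = 0.0435), and the call was kept only without WT undifferentiated replicate 3 among the 12 fits that left out 1 library (adjusted p 0.0507 to 0.0965 in the other 11). HIST1H4D, a histone H4 gene (chr6:26188765-26189076), averaged 3.02 ± 0.805 scaled TPM in HBBko and 8.57 ± 2.17 in WT at 48 h, against 1.99 ± 0.232 in HBBko and 2.22 ± 1.04 in WT before differentiation (SD, n = 3 each). Its interaction was -1.19 (SE 0.31, adjusted p = 0.0311), lost without HBBko 48 h replicate 1 or 2, WT 48 h replicate 1 or 3, or any HBBko undifferentiated library (adjusted p 0.0518 to 0.0791). HIST1H4D is not in the core and linker histone list, of whose 15 tested genes 0 were called by limma (6 lower and 0 higher at an unadjusted p under 0.05), although the list's median was -0.34 and 12 had a negative value; most histone mRNAs lack a poly(A) tail, and the library kit selects poly(A) RNA.

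Of 25 S phase and replication genes, 6 were called higher in the interaction and 1 lower. Together these were 28% of the list, against 11.3% of all tested genes (6.62% higher and 4.68% lower). The median was 0.17, against 0.02 over all tested genes. RFC4, a subunit of the clamp loader (chr3:186789880-186807058), was at 83.3, 83.7 and 82 scaled TPM in HBBko and 73.4, 73.1 and 76 in WT at 48 h, against 73.6, 72.2 and 75.9 in HBBko and 85.8, 98.4 and 92.8 in WT before differentiation. The HBBko libraries were above WT at 48 h, where the difference was not called (adjusted p = 0.0507), and below WT before differentiation (interaction 0.48, SE 0.07, adjusted p = 0.00372). CDT1, which loads the MCM helicase (chr16:88803213-88809258), had an interaction of 0.49 (SE 0.14, adjusted p = 0.0404), and its call was lost in 9 of the 12 fits that left out 1 library, the exceptions being WT 48 h replicate 3 and WT undifferentiated replicates 2 and 3 (adjusted p 0.0508 to 0.098). MCM6 (0.35) and MCM3 (0.26) of the helicase, RFC2 (0.34) and CDC45 (0.29) were the other called members.

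RRM2, the small subunit of ribonucleotide reductase (chr2:10120698-10131419), was the member called lower. It averaged 354 ± 7.29 scaled TPM in HBBko and 352 ± 27.7 in WT at 48 h, against 193 ± 12.1 in HBBko and 145 ± 13.1 in WT before differentiation (SD, n = 3 each). Its interaction was -0.41 (SE 0.10, adjusted p = 0.0283), lost without any HBBko 48 h library, WT 48 h replicate 2 or 3, or HBBko undifferentiated replicate 1 or 2 (adjusted p 0.0512 to 0.081). The count of S phase genes called higher was 2 without HBBko 48 h replicate 1 or 3, WT 48 h replicate 2 or HBBko undifferentiated replicate 1, 3 without HBBko 48 h replicate 2, and 11 without WT undifferentiated replicate 2 or with equal sums. Of 23 G2 and M phase genes TOP2A alone was called (0.33, higher), 4.35% of the list against 11.3% of all tested genes. The cell cycle inhibitor CDKN1A was called higher as well, at 3.15, 2.25 and 2.35 scaled TPM in HBBko and 1.04, 0.589 and 1.32 in WT at 48 h, against 0.242, 0.109 and 0.356 in HBBko and 0.292, 0.336 and 0.281 in WT before differentiation. The lines overlapped before differentiation and were apart at 48 h (interaction 0.94, SE 0.20, adjusted p = 0.0145).

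Of 12 tested early progenitor genes 3 were called lower in the interaction (GATA2, CDK6 and SPI1) and 0 higher by limma (5 and 0 at an unadjusted p under 0.05), with a median of -0.00. The called share was 25%, against 11.3% of all tested genes. The list had no common direction: 4 members were called higher and 5 lower in undifferentiated HBBko, with a median difference of -0.16. Over all tested genes 21.1% were called higher and 22.1% lower at that stage. GATA2, a progenitor transcription factor that is also expressed in mast cells, was at 27.6, 27.1 and 29.9 scaled TPM in HBBko and 31.3, 32.8 and 30.6 in WT at 48 h, against 244, 178 and 208 in HBBko and 139.7, 95.7 and 92.3 in WT before differentiation. Undifferentiated HBBko was the highest group, without overlap (interaction -1.11, SE 0.20, adjusted p = 0.00667). PRG2, an eosinophil and basophil granule protein, followed it, with 11.4, 8.89 and 10.6 scaled TPM in HBBko and 6.97, 7.36 and 9.48 in WT at 48 h, against 113, 109 and 111 in HBBko and 37.9, 42.2 and 46 in WT before differentiation (interaction -1.04, SE 0.15, adjusted p = 0.0028). CEBPA, a myeloid transcription factor, had means of 0.0464 scaled TPM in HBBko and 0.0599 in WT at 48 h, against 2.33 in HBBko and 0.634 in WT before differentiation (interaction -1.05). It was the one called gene of 3 tested myeloid markers, of which 2 had a positive interaction and whose median was 0.22. CDK6, a cell cycle kinase of progenitors, was lowest in undifferentiated HBBko: its means were 6.32 scaled TPM in HBBko and 24.1 in WT at 48 h, against 4.54 in HBBko and 8.81 in WT before differentiation, and the deficit in HBBko widened (interaction -0.98). SPI1, a myeloid and progenitor transcription factor, had means of 1.01 scaled TPM in HBBko and 1.47 in WT at 48 h, against 40.2 in HBBko and 33.5 in WT before differentiation (interaction -0.55).

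Summed over the 13 mast cell, basophil and eosinophil markers, scaled TPM ranged from 46.6 to 52.2 in HBBko and from 48.3 to 48.7 in WT at 48 h, against 1098 to 1299.6 in HBBko and 688 to 939 in WT before differentiation. The sum does not stand for every member: of the 8 that were tested, 3 were called higher and 2 lower in undifferentiated HBBko. Over all tested genes 21.1% were called higher and 22.1% lower at that stage. In the interaction GATA2 and PRG2 were called lower and 0 higher by limma (the same counts, 2 and 0, at an unadjusted p under 0.05), and CLC was at 0 in all 12 libraries. The 13 myeloid markers summed to 0.319 to 0.56 in HBBko and 0.935 to 1.33 in WT at 48 h, against 6.05 to 6.71 in HBBko and 5.02 to 6.92 in WT before differentiation. Of the 3 tested megakaryocyte markers ITGA2B was called higher (0.65) on the log2(scaled TPM + 1) scale, with means of 0.113 scaled TPM in HBBko and 0.396 in WT at 48 h, against 1.61 in HBBko and 4.13 in WT before differentiation. The ratio of HBBko to WT means was lower at 48 h, so the direction of ITGA2B depends on the scale. PF4 and PPBP were at 0 in all 12 libraries. No lymphoid marker and no stromal or endothelial marker passed the filter on low values. The part of these markers in the interactions above was not tested.

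The remaining lists had few called members. Shares near the 11.3% called over all tested genes were found for red cell membrane and skeleton (12.9%), iron (10%) and autophagy genes (10.7%). Called members made up 16% of the oxidative stress list, 14.3% of arrest and p53 target genes and 23.1% of interferon response genes. They made up 6.90% of late erythroid maturation genes and 5.71% of proteasome genes. By limma 0 of 22 heme synthesis genes were called (5 higher at an unadjusted p under 0.05) and 0 of 33 ribosomal protein genes (0 at an unadjusted p under 0.05), and late erythroid maturation had 2 lower of 29 (ARG1, -0.82, and PNP, -0.41). Among 31 red cell membrane and skeleton genes GYPE (0.88), ADD3 (0.50) and TMOD1 (0.46) were called higher and TPM3 (-0.26) lower. In the oxidative stress list HMOX1, which degrades heme, was called higher (0.82, SE 0.19) with 15.6, 14.6 and 13.3 scaled TPM in HBBko and 6.11, 5.59 and 5.22 in WT at 48 h, against 5.67, 4.5 and 5.55 in HBBko and 3.03, 3.34 and 4.94 in WT before differentiation. The lines were apart at 48 h, with HBBko higher. They overlapped before differentiation, where the difference of 0.40 was called as well (adjusted p = 0.0259). Of the 25 genes of that list ME1 (0.53) and SLC7A11 were called higher too and SRXN1 (-0.36) lower. Among 21 arrest and p53 target genes DDB2 (0.49) was called higher beside CDKN1A and BAX (-0.42) lower, and among 20 iron genes STEAP3 (-0.29) and ISCU (-0.27) were called lower. Of 35 proteasome genes PSMC2 (0.25) was called higher and PSME4 (-0.37) lower, and of 28 autophagy genes NBR1 (0.43) higher and ATG101 (-0.44) and ATG16L1 (-0.39) lower. The 13 tested interferon response genes had IFI35 (0.46) and STAT2 (0.44) called higher and RSAD2 (-0.81) lower.

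**Figure D4:**
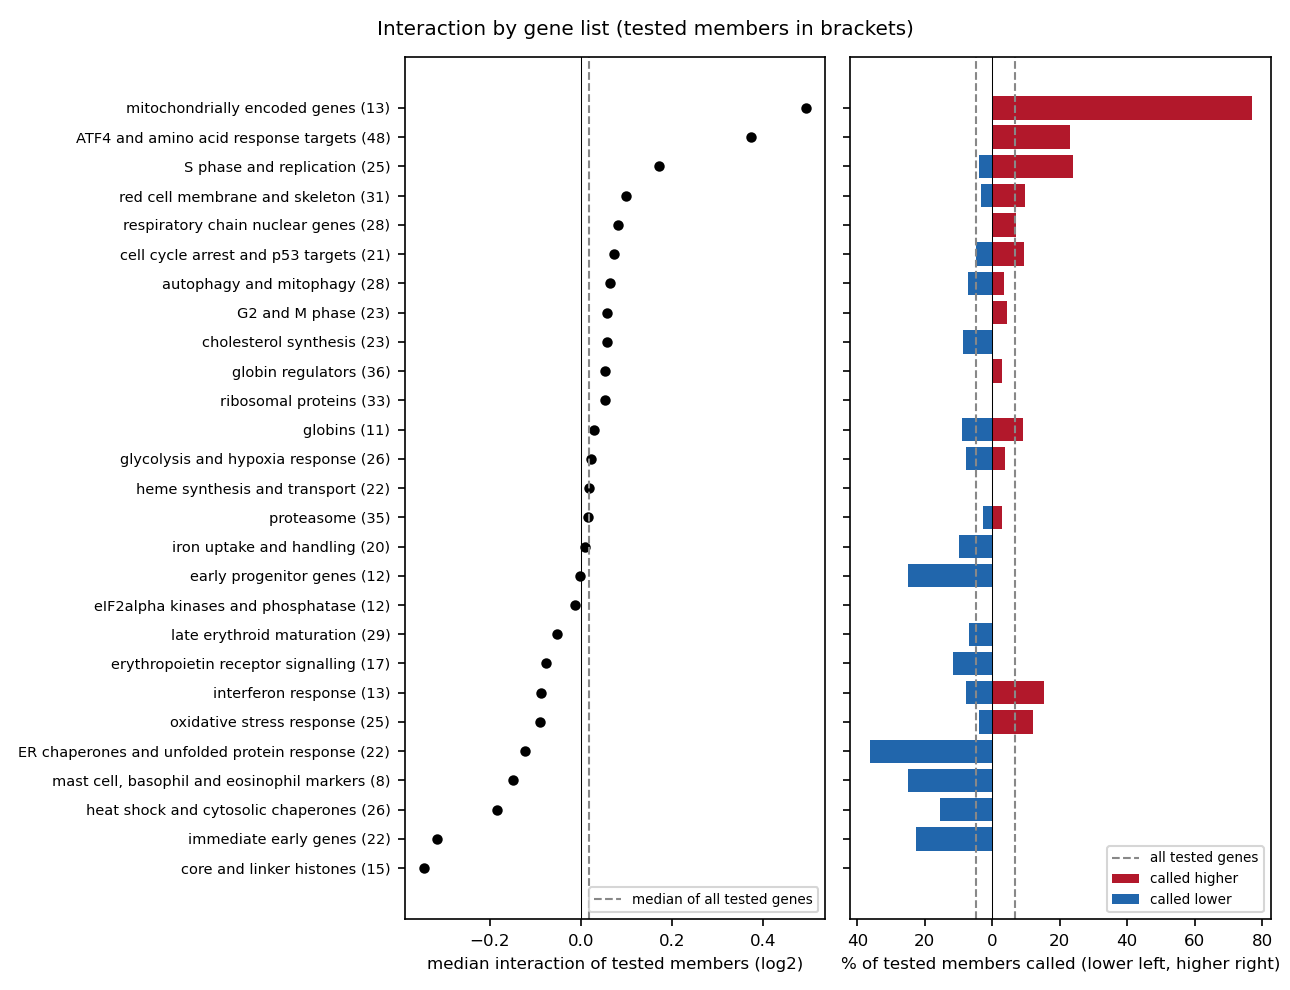
Median interaction (log2) of the tested members of each gene list with at least 5 tested members (left), and the percentage of tested members called higher (red, to the right) or lower (blue, to the left) in the interaction (right); dashed lines mark all tested genes. Mitochondrially encoded genes and ATF4 targets lie at the upper end with medians of 0.49 and 0.37, and immediate early and histone genes at the lower end with -0.32 and -0.34.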

How the data were processed

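Total RNA was made into TruSeq RNA v2 libraries per the labels' protocols, and kallisto, sleuth and hg38 are named in the submitters' processing notes; versions, annotation and the scaling step are not given in the sources used here. Expression values were deposited as signal for each gene symbol, in a table named TPM, and library sums of 783213 to 984482 over the 12 libraries show a further scaling, hence scaled TPM. The plan took the table for TPM, and the test was kept. Its columns name the lines as thal and wen, read as HBBko and WT from the names alone. The authors also deposited tables of log2 fold changes per stage, HBBko against WT, which were used for a check of direction only. Because depth is unknown, counting intervals are not given.

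Here, log2(scaled TPM + 1) was fitted for the 12 libraries with 1 mean per group and 8 residual degrees of freedom in R 4.3.3 with limma 3.58.1 (lmFit, contrasts.fit, eBayes with intensity trend). Tests were two-sided, with Benjamini-Hochberg adjustment over all 11577 genes within each contrast, and the procedure was tested on simulated data. The 5 d libraries were left out of the fit and enter 1 alternative. The members, the 31 gene lists (715 entries, all found) and the alternatives were chosen with earlier results of these data known. Named genes are the 12 largest called interactions in each direction with a highest group mean of at least 5, 7 fixed genes (HBB, HBG1, HBG2, ATF4, MYB, BCL11A, KLF1) and the 3 largest in each list with 5 or more called members, plus those of the ATF4 or heat shock list among them with a promoter match; list members and the other genes described beside them were picked after their values were seen. Gene positions are from GENCODE on GRCh38. Alternatives changed the pseudocount, the filter, the scaling, the libraries fitted, the weights and the replicate block.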

Additional observations from a re-analysis of the deposited data

Results flagged for a closer look

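For 35 named genes the difference between HBBko and WT cells changed between the stages by the test of the change itself, limma's interaction. Each value is the HBBko minus WT difference at 48 h minus that in undifferentiated cells, on the log2(scaled TPM + 1) scale. Of these genes 23 were called in all 12 fits that left out 1 library.

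Positive values were 2.27 for INHBE, 1.72 for MT1G, 1.61 for MT2A, 1.59 for DBN1, 1.54 for MAPRE3, 1.41 for PPARD, 1.34 for ADM2, 1.32 for CTH, 1.31 for CHAC1, 1.27 for TM6SF1, 1.22 for AC015813.2 and 1.2 for SLC30A1. Smaller ones were 0.70 for MT-CYB, 0.64 for MT-ND4, 0.61 for MT-ND6, 0.49 for CDT1 and 0.48 for RFC4. In these genes the HBBko minus WT difference, taken with its sign, was greater at 48 h, which does not mean a wider gap. For INHBE, DBN1, PPARD, ADM2, CTH, CHAC1, TM6SF1, SLC30A1 and CDT1 it was a deficit in HBBko that was smaller at 48 h.

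Negative values were -1.98 for RHOB, -1.92 for CALB2, -1.81 for ACTG1, -1.38 for TTC39A, -1.38 for HBD, -1.32 for CRIP1, -1.31 for INKA1, -1.25 for EGR1, -1.24 for PITX1, -1.21 for EYA4, -1.19 for HIST1H4D and -1.19 for PHLDA2. Smaller ones were -1.03 for DUSP2, -0.84 for FOSL1, -0.74 for HSPA5, -0.69 for MANF, -0.58 for SDF2L1 and -0.41 for RRM2. The sign for EYA4 was the opposite in the authors' deposited table, as described above.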

How the results depend on the processing

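The 1308 genes called in the interaction had the same sign in all 25 alternative fits, except for 1 gene with a pseudocount of 5 and 3 with quantile normalization; the stricter filter tested 1120 of them. Without a filter on low values, which tests 25024 genes, 786 were called. Leaving out 1 library at a time gave 495 to 2315 called genes: 513, 505 and 568 without HBBko 48 h replicates 1, 2 and 3, 576, 625 and 859 without WT 48 h replicates 1, 2 and 3, 495 and 746 without HBBko undifferentiated replicates 1 and 3, and 2315 without WT undifferentiated replicate 1. The count of at least 2-fold genes, 66, was 15 with a pseudocount of 5, 40 with a filter of at least 5 scaled TPM, and 51 to 98 with 1 library left out. Other scalings gave 1026 to 1573 called genes, the fit of all 18 libraries 1597, library weights 1729, and leaving out the third WT library of both stages, chosen after seeing the data, 1619.

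Signs were reversed for HBB with quantile normalization (1.16), for KLF1 without WT undifferentiated replicate 3 (-0.053, the lowest of -0.053 to 0.21 over the fits that left out 1 library) and for EYA4 in the difference of the authors' deposited log2 fold changes (0.088); the cause was not tested. Replicate numbers did not pair the libraries across all 4 groups: deviations of same-numbered libraries correlated at -0.11 to 0.20, over 0.1 in 6 of 18 pairs. Between the undifferentiated groups all 3 were over 0.1 (0.187, 0.122 and 0.162), and between the WT groups they were 0.197, 0.094 and 0.204. This is a hint from the data and not the design. A replicate block gave 1544 called genes, 70 of them at least 2-fold. Over named genes and alternatives, 893 values kept their side of the threshold and their sign, 124 lost the call, 29 gained it and 2 reversed. Depth is unknown, and values near 1 scaled TPM limit differences at 48 h.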

Other observations

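SCD, MALT1 and ARG2 are 3 of the 166 genes whose difference was called at 48 h alone, named after their values were seen. SCD, the desaturase that makes monounsaturated fatty acids, averaged 68 ± 4.43 scaled TPM in HBBko and 37.4 ± 1.18 in WT at 48 h, against 148 ± 5.97 in HBBko and 148 ± 9.86 in WT before differentiation (SD, n = 3 each), an interaction of 0.85 (SE 0.09, adjusted p = 0.000603). MALT1, a protease of NF-kappaB signalling, averaged 31.9 ± 0.977 in HBBko and 16.4 ± 0.0972 in WT at 48 h, against 44.2 ± 0.0681 in HBBko and 42.8 ± 6.68 in WT before differentiation, with 0.86 (adjusted p = 0.00243). ARG2, the mitochondrial arginase, averaged 1.81 ± 0.267 in HBBko and 4.68 ± 1.59 in WT at 48 h, against 4.93 ± 0.192 in HBBko and 3.52 ± 0.841 in WT before differentiation, with -1.39 (adjusted p = 0.00572).

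Of 26 glycolysis and hypoxia genes HK2 (0.62) was called higher and PFKFB3 (-0.81) and ENO2 (-0.48) lower. They made up 11.5% of the list, near the 11.3% called over all tested genes. BCL2L1, the survival factor downstream of the erythropoietin receptor, was called lower (-0.48), with 58.1, 59.3 and 60.3 scaled TPM in HBBko and 72.3, 72.1 and 98.8 in WT at 48 h, against 68.1, 66.6 and 69.3 in HBBko and 67.1, 60.8 and 69.4 in WT before differentiation, so the lines were apart at 48 h and overlapped before it. PIM1 (-0.23) was the other called member of the 17 tested genes of erythropoietin receptor signalling. The called share of that list, 11.8%, was near the 11.3% of all tested genes.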
